A study of Homo sapiens with 240 samples.

Results

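Rotenone at its late times, 8 and 16 h, was followed in HEK 293T cells whose AMPK is intact. Members were chosen by label: every library of AMPK WT cells given rotenone for 8 h (3 libraries) or 16 h (3 libraries), each set against the 3 libraries of AMPK WT cells in DMSO at 0 h. These 9 libraries are part of the 240 of the series, which asked how energy stress in mitochondria reaches the nucleus through AMPK and the proteins downstream of it. Polyadenylated RNA was sequenced, and the values are TPM, a unit scaled by gene length and library total. HEK 293T is an established line from human embryonic kidney that carries the SV40 large T antigen, a viral protein that binds p53 and RB. Cells grew in DMEM with fetal bovine serum.

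Other groups of 3 libraries each served for comparison. They were AMPK WT cells given rotenone for 2 or 4 h, AMPK WT cells given phenformin (Phen), CCCP or compound 991 for 8 or 16 h, and AMPK KO cells in DMSO at 0 h or given rotenone for 8 or 16 h. Phenformin is a biguanide that slows complex I, CCCP is an uncoupler that collapses the mitochondrial proton gradient, and compound 991 binds AMPK and activates it directly. Doses are not given in the sources used here, and nothing there says whether the AMPK KO cells are 1 clone. DMSO was sampled at 0 h only, so time in culture and rotenone cannot be told apart in any comparison with DMSO. Nothing in the labels says that replicates are separate cultures, so the p-values speak to the spread among libraries alone, which may be technical.

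Rotenone, a plant compound, blocks electron transfer in complex I of the respiratory chain and also binds tubulin, which stops microtubules from growing. Cells whose respiration fails switch on the integrated stress response, in which translation slows while the transcription factor ATF4 is made and turns on genes for amino acid synthesis, transport and tRNA charging. Cells whose spindle lacks working microtubules are held in mitosis by the spindle assembly checkpoint, and the genes of mitosis are transcribed mainly in G2 and mitosis. Free tubulin is also known to shorten the life of tubulin mRNA, through the ribosome-bound factor TTC5.

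The 9 libraries were alike in breadth: 12295 to 12763 genes stood at 1 TPM or more, and TPM summed to 403222 to 407211 over the genes of the table. That is less than the full sum TPM have by definition, so each level is relative to a total that is only partly seen here. TPM keep no depth, so the depth of each library is unknown. DMSO replicate 1 lay farthest from its group mean, with a standard deviation of 0.126 on the log2(TPM + 1) scale, and DMSO replicate 2 came next with 0.105, against at most 0.0793 for any rotenone library. Results that rest on replicate 1 are given with and without it where its loss ends a call or moves a count by over 1.5 times. Of the 12 genes listed as typical of HEK 293 cells 10 passed the filter on low values, and their summed level was 347 to 376 TPM in DMSO and 408 to 427 TPM at 16 h. Markers of adult kidney tubules and podocytes summed to 2.9 to 4.53 TPM in DMSO, with LRP2 the 1 of 13 that passed. Endothelial markers stayed at or below 0.498 TPM in sum, and blood cell markers summed to 2.69 to 3.4 TPM in DMSO. Of 7 fibroblast markers 3 passed the filter, COL1A1, COL3A1 and LUM, and all 3 fell, their list summing to 9.1 to 9.46 TPM in DMSO and 4.19 to 4.67 TPM at 16 h. Their part in the results was not tested. In bulk RNA, fewer cells of a kind and less RNA per cell cannot be told apart.

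At both late times rotenone raised genes of the amino acid stress response and of mitosis and lowered tubulin genes, immediate early genes and replication-dependent histone genes. Across the 13617 genes that passed the filter, limma with Benjamini-Hochberg adjustment called 4810 higher and 3721 lower than DMSO at 8 h, which is 35.3% and 27.3% of the genes tested. At 16 h it called 4929 higher and 3978 lower, 36.2% and 29.2%. The median of all genes moved by 0.03 at both times, on the log2(TPM + 1) scale used for every difference here. Changes of at least 1.5-fold on that scale were fewer: 591 higher and 771 lower at 8 h (4.34% and 5.66%), and 686 higher and 859 lower at 16 h (5.04% and 6.31%). Because most genes passed the test, the count of a list is read against those shares. Without DMSO replicate 1 the totals were 7433 genes at 8 h and 7931 at 16 h, in place of 8531 and 8907.

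**Figure D1:**
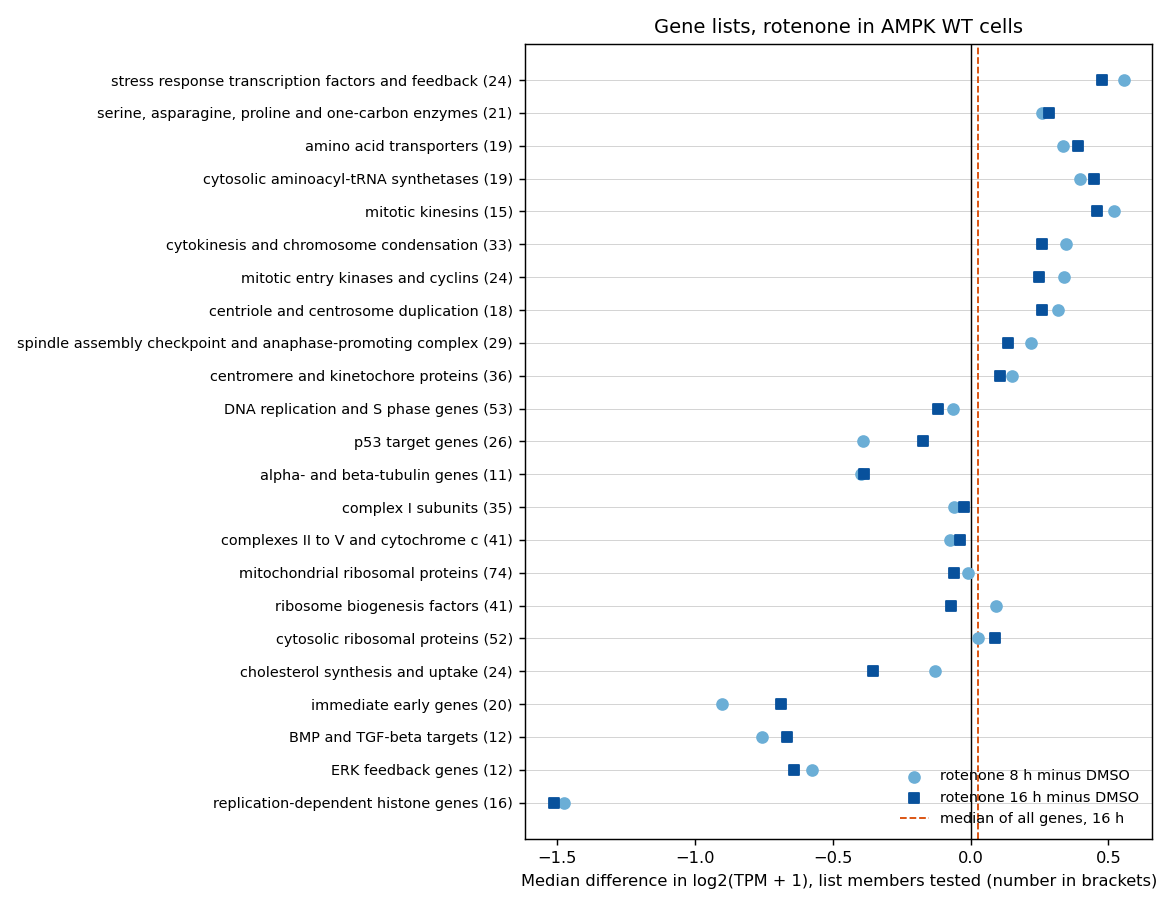
Median difference in log2(TPM + 1) between rotenone and DMSO in AMPK WT cells for 23 gene lists, with the number of members tested in brackets. Circles are 8 h, squares are 16 h, and the dashed line is the median of all genes at 16 h. Stress response and mitosis lists lie to the right of that line and tubulin, immediate early and histone lists to the left, with the 8 h and 16 h values close to each other except for cholesterol synthesis, p53 targets, immediate early genes and ribosome biogenesis factors.

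Most genes of the amino acid stress response rose at both late times. Of the 94 members tested over 5 lists of ATF4-linked genes, 68 rose and 15 fell at 8 h (median 0.35), and 66 rose and 15 fell at 16 h (median 0.39). The counts without DMSO replicate 1 were 65 up and 9 down at 8 h and 62 up and 14 down at 16 h. Summed over the lists, the level was 4079.5, 4122 and 3995 TPM in the DMSO libraries, 5626, 5946 and 5816 TPM at 8 h and 5925, 6015 and 5941 TPM at 16 h. Every rotenone library therefore lay above every DMSO library. Cytosolic aminoacyl-tRNA synthetases, which load amino acids onto tRNA, rose in 14 of 19 cases at 16 h and fell in 3 (median 0.45). Amino acid transporters followed with 14 of 19 up and 3 down, serine, asparagine and one-carbon enzymes with 15 of 21 up and 3 down, and transcription factors with their feedback genes with 18 of 24 up and 3 down. Secreted factors were split, with 5 up, 3 down and 3 not called among the 11 of 20 that passed the filter. The same lists moved little after 8 h: 10 members were higher and 6 lower at 16 h than at 8 h, against 4.05% and 4.36% of all genes. From 4 h to 8 h 35 had risen and 0 had fallen, against 5.54% and 1.95%. Over all genes that interval was sensitive to scaling: 755 rose and 265 fell as deposited, 483 and 484 after the libraries were scaled by median ratios, and 490 and 361 after quantile normalization.

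Among the regulators, ATF4 (chr22:39520564-39522686, GRCh38), the factor at the centre of the response, stood at 419, 386 and 358 TPM in DMSO, 809, 829.7 and 815 TPM at 8 h and 835, 849 and 820.3 TPM at 16 h. The rotenone libraries sat close together at about the same height at both times, well above all DMSO libraries. Its difference from DMSO was 1.08 ± 0.06 (SE) at 8 h and 1.11 ± 0.06 at 16 h (adjusted p = 3.25e-24). DDIT4 (chr10:72273919-72276039), an inhibitor of mTORC1, went from 19, 17.7 and 16.2 TPM to 91.1, 96.8 and 91.8 TPM at 8 h and 92.6, 106 and 105 TPM at 16 h. That rise, 2.45 ± 0.15 at 16 h (adjusted p = 2.67e-23), was one of the largest among the genes named here, again with no overlap between groups. SESN2, a leucine sensor that also restrains mTORC1, rose by 1.32 ± 0.09 at 8 h and 1.26 ± 0.09 at 16 h. CHAC1, which breaks down glutathione, was at 4.61, 2.02 and 2.69 TPM in DMSO, 16.5, 17.2 and 15.7 TPM at 8 h and 13.9, 17.7 and 15.5 TPM at 16 h. All rotenone libraries exceeded all DMSO libraries, of which replicate 1 was the highest. The CHAC1 difference at 16 h was 2.07 ± 0.16 with all libraries (adjusted p = 1.45e-18) and 2.32 without DMSO replicate 1.

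Not every gene of the response rose. NUPR1, a small stress-induced chromatin protein, kept rising: 1.47, 0.898 and 0.993 TPM in DMSO, 4.33, 5.35 and 4.42 TPM at 8 h and 7.23, 8.57 and 8.12 TPM at 16 h. The 16 h libraries were all above the 8 h libraries, by 0.66 ± 0.13 (adjusted p = 3.86e-04). DDIT3, the pro-death factor CHOP, more than doubled from a mean of 6.8 ± 0.247 TPM (SD, n = 3) to 15.5 ± 0.748 TPM at 8 h and 17 ± 0.738 TPM at 16 h (difference 1.20 ± 0.08). TRIB3, a feedback inhibitor that CHOP and ATF4 induce, did not pass the test: it averaged 15.8 ± 0.559, 15.6 ± 0.518 and 17.6 ± 0.913 TPM in the same order, a difference of 0.15 ± 0.07 at 16 h (adjusted p = 0.0507), which was called when DMSO replicate 1 or rotenone 16 h replicate 1 was left out (0.18 and 0.19). ATF5, another factor of the pathway, fell from 16.2 TPM to 12.6 TPM at 8 h and 9.09 TPM at 16 h (difference -0.77 ± 0.07, adjusted p = 4.06e-15). ATF3 fell by 0.44 ± 0.12 at 8 h and by 0.29 ± 0.12 at 16 h, but both calls were lost without DMSO replicate 1, whose level was the highest, and the 16 h call also without rotenone 16 h replicate 1 or 3. CEBPA, a factor of differentiation, fell as well (-0.75 ± 0.12 at 16 h). JDP2, which binds the same kind of site as ATF3, rose by 1.35 ± 0.10.

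The enzymes that build serine, asparagine and one-carbon units rose together, some of them further between 8 and 16 h. ASNS (chr7:97852117-97872165), which makes asparagine, was at 75.3, 76.2 and 72.5 TPM in DMSO, 163, 199 and 192 TPM at 8 h and 224, 229 and 223 TPM at 16 h. The 3 time groups did not overlap, and 16 h exceeded 8 h by 0.29 ± 0.07 (adjusted p = 0.00307); against DMSO the 16 h difference was 1.58 ± 0.07 (adjusted p = 1.84e-30). The step after 8 h was 0.20 and no longer called without rotenone 8 h replicate 1 (adjusted p = 0.0997). PHGDH, the first enzyme of serine synthesis, showed the same late step, from 263, 292 and 272 TPM at 8 h to 333, 347 and 343 TPM at 16 h, with DMSO at 216, 222 and 210.2 TPM (16 h against 8 h, 0.31 ± 0.05, adjusted p = 1.09e-05). Against DMSO, PHGDH rose by 0.66 at 16 h. Mitochondrial folate enzymes varied: at 16 h MTHFD2 rose by 0.70 ± 0.06, SHMT2 by 0.28 ± 0.03 and the low-level ALDH1L2 by 1.39 ± 0.11. PCK2, the mitochondrial enzyme that makes phosphoenolpyruvate, rose from 6.33 to 25 TPM, and GPT2, a mitochondrial alanine transaminase, from 12.4 to 31.7 TPM.

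Transporters and secreted products varied among themselves. The cystine carrier SLC7A11 rose from 2.62, 2.81 and 2.66 TPM to 10.9, 12 and 12 TPM at 8 h, and the glycine carrier SLC6A9 from 5.83, 4.35 and 4.23 TPM to 9.35, 10.1 and 10.1 TPM. In both genes all rotenone libraries lay above all DMSO libraries. The neutral amino acid carrier SLC1A4 rose by 0.98 ± 0.07 and the leucine carrier SLC7A5 by 0.63 ± 0.05 at 16 h, and YARS, the tyrosyl-tRNA synthetase, by 0.87 ± 0.07. Of the secreted factors, STC2 (stanniocalcin 2) went from 7.08, 6.2 and 6.21 TPM to 28.2, 28.7 and 29.96 TPM at 8 h and 28.6, 29.3 and 29.5 TPM at 16 h. It was level between 8 and 16 h and far above DMSO at both (2.01 ± 0.11, adjusted p = 3.52e-26). VEGFA, the vascular growth factor, rose by 0.97 ± 0.07 and ADM2 by 1.64 ± 0.10, whereas ADM, a vasodilator peptide, fell by 1.16 ± 0.17. The mitochondrial stress hormones stayed low: GDF15 averaged 1.14 TPM in DMSO, 0.285 TPM at 8 h and 1.14 TPM at 16 h, and FGF21 reached 0.184 TPM. The fall of GDF15 at 8 h (-0.66) was called with all libraries but not without DMSO replicate 1 (-0.34, adjusted p = 0.233). Its step from 8 to 16 h was lost without rotenone 8 h replicate 1, 2 or 3 or rotenone 16 h replicate 1 or 3. INHBE, a liver activin subunit, rose from 0.111 to 1.2 TPM.

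**Figure D2:**
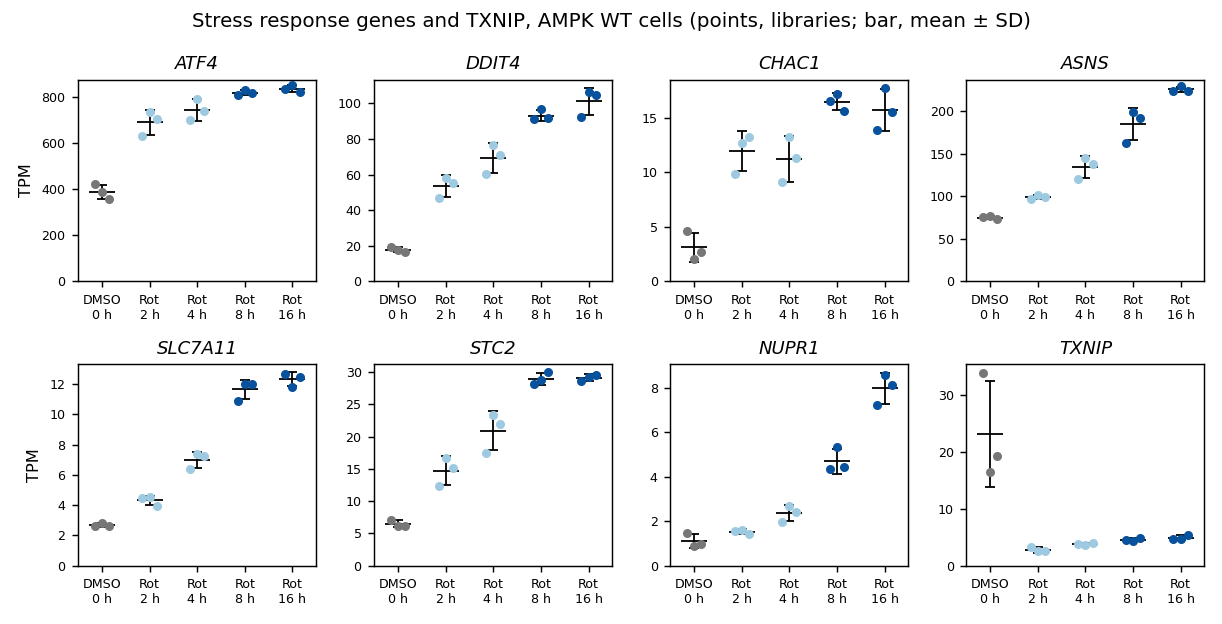
TPM of 7 stress response genes and of TXNIP in AMPK WT cells in DMSO at 0 h and after 2, 4, 8 and 16 h of rotenone. Points are single libraries and the horizontal bar with its whiskers is the mean ± SD of 3 libraries. ATF4, DDIT4, CHAC1 and STC2 are level between 8 and 16 h, ASNS and NUPR1 are higher at 16 h than at 8 h, and TXNIP is low from 2 h on with wide DMSO values.

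ATF4 and its partners are known to bind composite sites written TGATGNAA, and 2 of the risen genes are shown because they carry one close to the start. The windows below are 125 bases from RefSeq's GRCh38.p14 annotation, 5′ to 3′ on the gene's strand, with matches to TGATGNAA in capitals, searched on both strands. RefSeq's start sites differ from the transcript starts of the deposited table, whose coordinates are given with the genes, and positions are counted from RefSeq's. The ASNS window (chr7:97872409-97872533, minus strand) covers the 125 bases before the first start RefSeq lists and has its match at -68 to -61, and the CHAC1 window (chr15:40953221-40953345, plus strand) covers the 125 bases before that stretch, from -250 on, and has its match, TTGCATCA as read on this strand, at -209 to -202.
ASNS: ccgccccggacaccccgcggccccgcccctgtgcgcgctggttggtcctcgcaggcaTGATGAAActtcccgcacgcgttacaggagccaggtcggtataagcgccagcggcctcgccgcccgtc
CHAC1: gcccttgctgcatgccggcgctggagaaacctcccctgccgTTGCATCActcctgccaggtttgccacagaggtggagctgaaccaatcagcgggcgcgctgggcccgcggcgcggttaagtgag
Such a match was present in the 250 bases before the start of 3.19% of all 27305 promoters of the table. RefSeq promoters were at hand for 59 of the 94 stress response genes tested, and 8 of the 59 held a match (13.6%). Of the 9833 tested genes with a promoter 1.33% held one. The lists were drawn up as ATF4-linked genes and only partly searched, so this share is no test of them. A match is a description and not a bound site.

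Mitosis genes rose more at 8 h than at 16 h. Over 6 lists with 155 of 157 members tested, 111 rose and 14 fell at 8 h (median 0.30), and 103 rose and 17 fell at 16 h (median 0.23). The summed level was 4969, 5056 and 4989 TPM in DMSO, a mean of 5241 TPM at 2 h and 5539 TPM at 4 h, 5949.8, 5772 and 5919 TPM at 8 h and 5650.4, 5551 and 5587 TPM at 16 h. The 8 h libraries were the highest, the 16 h libraries lay between them and DMSO, and none of these groups overlapped. Between 8 and 16 h 28 members fell and 3 rose, against 4.36% and 4.05% of all genes. Between 4 and 8 h 36 rose and 1 fell, against 5.54% and 1.95%, shares that moved with the scaling. By role, mitotic kinesins were the most uniform, with 14 of 15 up at 8 h and 13 at 16 h and 0 down at either time. Cytokinesis and condensation genes had 26 of 33 up and 2 down at 8 h, mitotic entry kinases and cyclins 20 of 24 up and 2 down, and centriole genes 14 of 18 up and 0 down. Checkpoint and anaphase-promoting complex genes were less even (18 up and 4 down of 29), as were centromere and kinetochore genes (19 up and 6 down of 36). Without DMSO replicate 1 the 6 lists had 107 up and 12 down at 8 h and 97 up and 18 down at 16 h.

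Among the entry kinases, AURKA (chr20:56369389-56392337), which matures the spindle poles, was at 44.3, 48.5 and 46.2 TPM in DMSO, 88.2, 80.1 and 87 TPM at 8 h and 74.4, 68.8 and 70.8 TPM at 16 h. Its 16 h libraries lay below its 8 h libraries and above DMSO, with no overlap. The differences were 0.86 ± 0.07 at 8 h (adjusted p = 3.17e-17), 0.61 ± 0.07 at 16 h and -0.25 ± 0.07 between the late times (adjusted p = 0.0124). That last call was lost when rotenone 8 h replicate 1 or 3 or rotenone 16 h replicate 2 or 3 was left out (adjusted p = 0.0526 to 0.0778). PLK1 (chr16:23678772-23690367), the polo kinase that drives mitotic entry, had the same shape: 85.3, 86.3 and 81.4 TPM, then 124, 111 and 111 TPM, then 98.9, 97.4 and 99 TPM. It fell by 0.23 ± 0.04 between 8 and 16 h (adjusted p = 5.78e-05) and remained above DMSO by 0.22 ± 0.04. CCNB1, cyclin B1, rose from 103, 109 and 106 TPM to 151, 139 and 147 TPM at 8 h and stood at 129, 127 and 121 TPM at 16 h. Again the 16 h libraries were intermediate, and fell by 0.21 ± 0.04 from 8 to 16 h (adjusted p = 7.69e-04). CDK1, the kinase that cyclin B1 activates, rose by 0.39 ± 0.06 at 8 h and 0.32 ± 0.06 at 16 h. WEE1, the kinase that holds CDK1 inactive, fell by 0.33 ± 0.08 at 16 h.

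Of the checkpoint kinases and kinetochore genes named below, those that rose did so by 0.61 (BUB1) to 1.02 (NDC80) at 8 h. Named genes include the largest changes within each list. BUB1B, which encodes the checkpoint protein BubR1, was at 21.4, 21.5 and 21.7 TPM in DMSO, 38.5, 36.5 and 39.7 TPM at 8 h and 39.2, 36.3 and 36.4 TPM at 16 h. The 8 h and 16 h libraries overlapped each other and both lay far above the DMSO libraries, which were almost identical. TTK, the kinase that starts checkpoint signalling, rose by 0.82 ± 0.08 at 8 h and 0.62 ± 0.08 at 16 h, and BUB1 by 0.61 ± 0.06 and 0.48 ± 0.06. NDC80, the kinetochore protein that grips microtubules, went from 9.04, 10.6 and 9.19 TPM to 20.8, 19.6 and 20.9 TPM at 8 h and 19.4, 18.3 and 18.2 TPM at 16 h. All rotenone libraries were higher than all DMSO libraries. CENPA, the centromeric histone, rose by 0.77 ± 0.06 at 8 h, the kinetochore motor CENPE by 0.73 ± 0.08, and SGO2, a guardian of sister chromatid cohesion, by 0.78 ± 0.10. BUB3, a checkpoint scaffold, and the kinetochore genes MIS12 and CENPT fell (-0.26 ± 0.03, -0.57 ± 0.07 and -0.54 ± 0.06 at 16 h). CDC20, the activator of the anaphase-promoting complex, rose by 0.31 ± 0.04 at 8 h and 0.17 ± 0.04 at 16 h. Its late-mitosis counterpart FZR1 rose from a mean of 8.11 ± 1.43 TPM to 17.7 ± 0.436 TPM at 8 h.

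Motors and the cleavage furrow followed. KIF20B, a kinesin of the midzone, was at 6.48, 7.7 and 7.16 TPM in DMSO, 13, 12.4 and 13.9 TPM at 8 h and 13.5, 13 and 13.2 TPM at 16 h. The 8 and 16 h libraries overlapped, and none came near DMSO. KIF18B, which shortens astral microtubules, rose by 0.80 ± 0.06 at 8 h and 0.56 ± 0.06 at 16 h, and KIF15, a spindle motor, by 0.73 ± 0.08 and 0.73 ± 0.08. ANLN (anillin), which organises the contractile ring, rose by 0.76 ± 0.07 at 8 h, and HMMR, a spindle pole protein, by 0.76 ± 0.07. Of the centriole genes SASS6, which templates the new centriole, rose by 0.83 ± 0.10, PCM1, the core of centriolar satellites, by 0.86 ± 0.09, and KIZ, which stabilises spindle poles, by 1.22 ± 0.12.

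**Figure D3:**
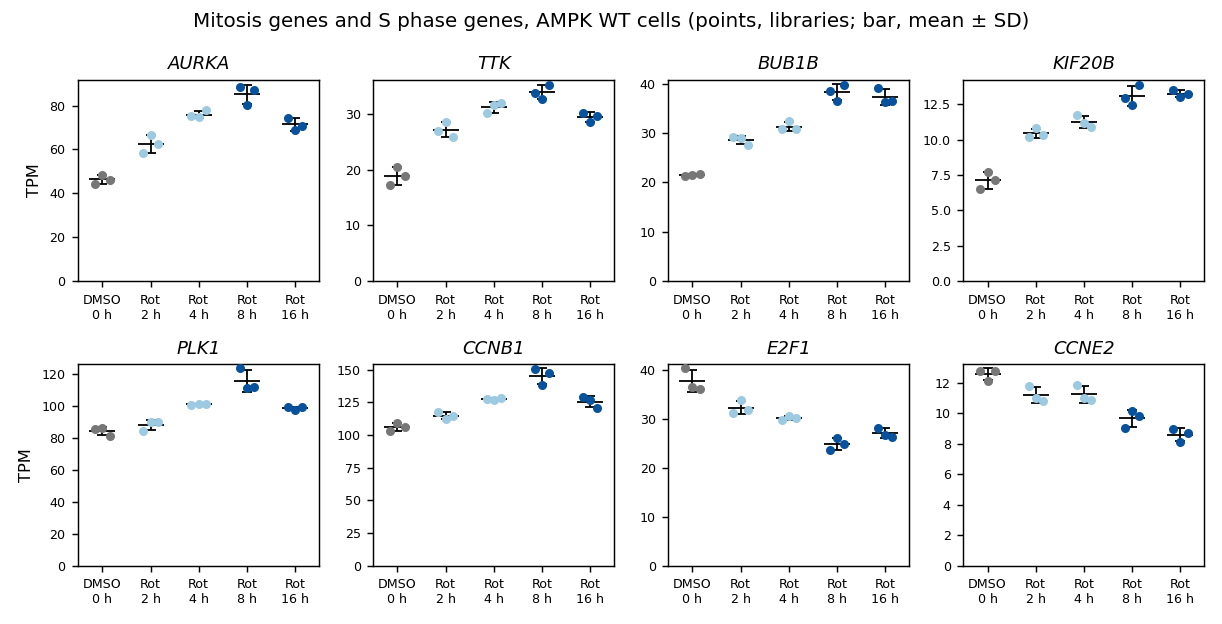
TPM of 6 mitosis genes and of the S phase genes E2F1 and CCNE2 in AMPK WT cells in DMSO at 0 h and after 2, 4, 8 and 16 h of rotenone. Points are single libraries and bars are the mean ± SD of 3 libraries. AURKA, PLK1 and CCNB1 peak at 8 h, BUB1B and KIF20B are as high at 16 h as at 8 h, and E2F1 and CCNE2 lie below DMSO.

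Genes of G2 and mitosis are known to share a promoter element, the CHR, written TTTGAA, often with CCAAT boxes upstream. The windows of CCNB2, PLK1 and CDC20 are shown because all 3 genes rose and carry both elements. Each is the 125 bases before RefSeq's start site (GRCh38.p14, plus strand), not before the transcript start of the deposited table, with TTTGAA and CCAAT in capitals, searched on both strands: CCNB2 at chr15:59105021-59105145, PLK1 at chr16:23678764-23678888 and CDC20 at chr1:43358856-43358980.
CCNB2: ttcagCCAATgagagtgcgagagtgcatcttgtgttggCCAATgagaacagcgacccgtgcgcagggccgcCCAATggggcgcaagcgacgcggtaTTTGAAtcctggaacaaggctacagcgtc
PLK1: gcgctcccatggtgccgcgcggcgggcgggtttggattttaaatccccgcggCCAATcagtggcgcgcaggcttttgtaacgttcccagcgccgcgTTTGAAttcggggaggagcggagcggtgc
CDC20: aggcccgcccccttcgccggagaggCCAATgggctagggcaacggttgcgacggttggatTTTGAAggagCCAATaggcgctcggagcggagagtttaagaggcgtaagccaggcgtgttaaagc
TTTGAA lies at -29 to -24 in CCNB2 and in PLK1 and at -65 to -60 in CDC20. In the 250 bases before the start, TTTGAA was present in 46 of the 131 mitosis genes with a RefSeq promoter (35.1%). It was present in 1 of 44 DNA replication genes (2.27%), in 8.03% of the 9833 tested genes with a promoter and in 13.6% of all 27305 promoters. Both TTTGAA and CCAAT were present in 37 of the 131 mitosis genes (28.2%), in 3.33% of the tested genes and in 4.85% of all promoters. CCAAT alone was about as frequent in mitosis as in replication genes, with 60.3% and 59.1%, against 35.2% of the tested genes and 33.04% of all promoters. Because genes of mitosis are already known for TTTGAA, these shares are no test of the lists. A match is not a bound site. CCNB2, cyclin B2, rose by 0.28 ± 0.05 at 8 h (adjusted p = 4.07e-07) and 0.14 ± 0.05 at 16 h.

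S phase genes went the other way. Of 53 DNA replication and S phase genes 26 fell and 11 rose at 16 h (median -0.12), a share of falls above the 29.2% of all genes, with 29 down and 6 up after median-ratio scaling. CDC6, which loads the replicative helicase, was at 58.7, 59.6 and 61 TPM in DMSO, 39.5, 41.6 and 42.1 TPM at 8 h and 41.9, 41.2 and 41.9 TPM at 16 h. The rotenone libraries of the 2 times were alike and all below DMSO (-0.51 ± 0.04 at 16 h, adjusted p = 8.25e-16). MCM7, a helicase subunit, fell from a mean of 282 ± 7.9 TPM to 197 ± 1.3 TPM, and RRM2, a subunit of the enzyme that makes deoxynucleotides, from 111 ± 5.54 to 73.1 ± 0.985 TPM. The S phase activators fell as well: E2F1 by 0.46 ± 0.06, CCNE1 (cyclin E1) by 0.37 ± 0.06 and CCNE2 (cyclin E2) by 0.50 ± 0.07 at 16 h. Of the inhibitors of cyclin-dependent kinases, CDKN2C (p18) fell from 58.3 to 35.8 TPM, while CDKN1B (p27) averaged 19.3, 17.2 and 17.9 TPM in DMSO, at 8 h and at 16 h without passing the test. CCND1 (cyclin D1) did not pass it either (-0.13 ± 0.08 at 16 h, adjusted p = 0.144), though it did without DMSO replicate 1 (-0.22) and after median-ratio scaling (-0.17) or quantile normalization (-0.21).

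Targets of p53, whose protein the T antigen of this line binds, were lower than DMSO at 8 h and less so at 16 h. Of 26 targets 20 fell and 3 rose at 8 h (median -0.39), and 15 fell and 4 rose at 16 h (median -0.17). At 16 h 10 were higher than at 8 h and 0 lower, against 4.05% and 4.36% of all genes. When DMSO replicate 1 was left out there were 18 down and 4 up at 8 h and 11 down and 5 up at 16 h. The summed level of the list, 521, 432 and 447 TPM in DMSO and 412, 417 and 413 TPM at 8 h, was 452, 453 and 459 TPM at 16 h, within the range of DMSO. CDKN1A, the p21 inhibitor of cyclin-dependent kinases, stood at 29.3, 15.5 and 19.4 TPM in DMSO, 8.34, 8.91 and 7.68 TPM at 8 h and 12.9, 15.2 and 14.6 TPM at 16 h. Every 16 h library was above every 8 h library, and the lowest DMSO library lay just above the highest 16 h library. The step from 8 to 16 h was 0.71 ± 0.17 (adjusted p = 0.00323). The 16 h difference from DMSO, -0.51 ± 0.17, was called with all libraries and was -0.27 without DMSO replicate 1 (adjusted p = 0.193). PHLDA3, an inhibitor of AKT, rose by 0.77 ± 0.13 between 8 and 16 h, and TNFRSF12A, the TWEAK receptor, by 0.71 ± 0.13. PLK2, a target kinase, stayed down (-1.15 ± 0.15 at 16 h). Among genes that start apoptosis, BBC3 (PUMA) was at 7.63, 4.43 and 4.64 TPM in DMSO, 5.67, 6.79 and 6.09 TPM at 8 h and 8.71, 9.59 and 8.88 TPM at 16 h. Its 16 h libraries were the highest, and its 8 h libraries fell within the range of DMSO, which replicate 1 widened. HRK rose by 0.73 ± 0.10 at 16 h to 2.94 TPM, whereas BMF (-1.01 ± 0.18) and PMAIP1, which encodes NOXA (-0.70 ± 0.10), fell.

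All but 1 of the alpha- and beta-tubulin genes that passed the filter fell, at both times. Of the 11 tested out of 17 listed, 10 fell and 0 rose at 8 h (median -0.40) and 10 fell and 0 rose at 16 h (median -0.39), with the same counts without DMSO replicate 1. The other 6 were below the filter, TUBB among them at 0.23 TPM in DMSO and 0.212 TPM at 16 h. The deposited table places TUBB, a major beta-tubulin gene of most cells, on an alternate contig, so its value may not reflect its mRNA level, and the sums that follow may lack it. The tested gene that was not called was TUBA8. Summed tubulin mRNA was 1675, 1834 and 1772 TPM in DMSO, 1425, 1427 and 1352 TPM at 8 h and 1336, 1374 and 1323 TPM at 16 h. DMSO and rotenone libraries did not overlap, and a mean of 1611 TPM at 2 h and 1493 TPM at 4 h lay between. TUBA1B (chr12:49127784-49131521), the most abundant alpha-tubulin mRNA here, was at 828, 926 and 886 TPM in DMSO, 742, 762 and 722 TPM at 8 h and 687, 701 and 669 TPM at 16 h. It was 0.24 ± 0.03 below DMSO at 8 h and 0.36 ± 0.03 below it at 16 h (adjusted p = 4.84e-15), and the step between was called with all libraries but not without rotenone 8 h replicate 1 or 2 or rotenone 16 h replicate 3 (adjusted p = 0.0573, 0.122 and 0.131). TUBB4B (chr9:137241259-137243707), the beta-tubulin gene with the highest level in the table, TUBB aside, was at 401, 423 and 408 TPM in DMSO, 303, 293 and 277 TPM at 8 h and 288, 298 and 294 TPM at 16 h. Its 8 and 16 h libraries overlapped, and both lay below DMSO (-0.48 ± 0.05 at 16 h, adjusted p = 1.02e-13).

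The other tubulins that were called fell by 0.30 to 1.03 at 16 h. TUBA4A, an alpha-tubulin, had the largest fall of these (-1.03 ± 0.12), from 5.37 to 2.09 TPM. TUBA1A fell by 0.47 ± 0.05, TUBA1C by 0.31 ± 0.04, TUBB2A by 0.39 ± 0.07, TUBB2B by 0.31 ± 0.06, TUBB3, the neuronal isotype, by 0.45 ± 0.10, TUBB4A by 0.47 ± 0.07 and TUBB6 by 0.30 ± 0.05. Tubulins outside the dimer moved in both directions. Gamma-tubulin TUBG1, which seeds microtubules, fell as well, by 0.24 ± 0.04. The centriolar tubulins TUBD1 (delta) and TUBE1 (epsilon) rose by 0.66 ± 0.08 and 0.62 ± 0.05. Over that list, which also holds tubulin folding factors, 9 of 18 rose and 3 fell, with 7 up and 4 down after median-ratio scaling and 7 up and 5 down after quantile normalization. Microtubule-binding proteins rose in 15 of 23 cases and fell in 4, among them the polymerase CKAP5 (0.56 ± 0.06) and the plus-end protein CLASP2 (0.57 ± 0.06). TTC5, the factor through which free tubulin marks its own mRNA for decay, was 0.20 ± 0.04 above DMSO at 8 h and not called at 16 h (0.03 ± 0.04, adjusted p = 0.634). Whether tubulin binding by rotenone bears on these levels was not tested.

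**Figure D4:**
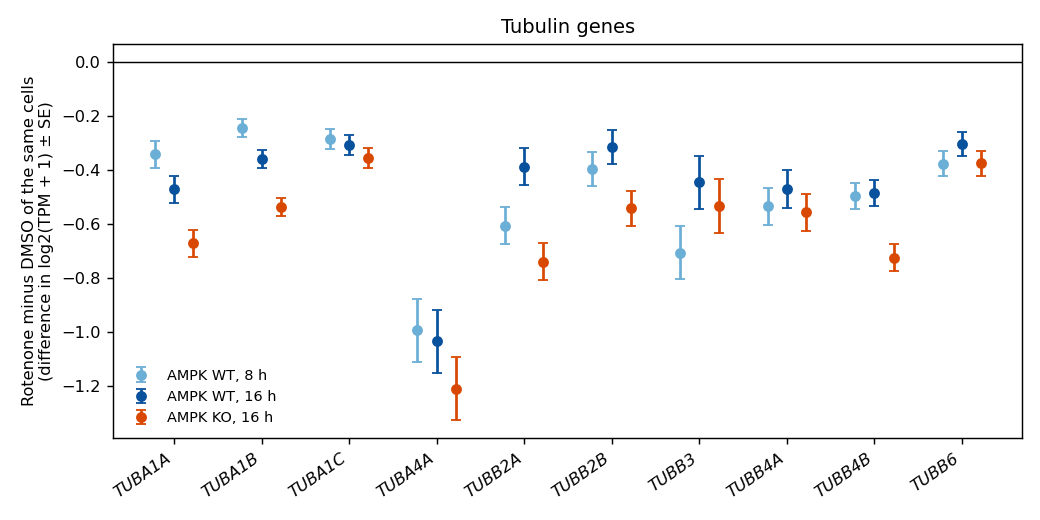
Difference in log2(TPM + 1) between rotenone and DMSO of the same cells for 10 alpha- and beta-tubulin genes, with points for AMPK WT at 8 h, AMPK WT at 16 h and AMPK KO at 16 h and bars for the SE of the fit. All 30 points lie below 0, TUBA4A lowest.

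The other compounds put the tubulin falls in order. At 16 h TUBB4B averaged 293 ± 5.11 TPM with rotenone (SD, n = 3), 78.3 ± 0.392 TPM with phenformin, 237 ± 3.98 TPM with CCCP and 330.2 ± 7.87 TPM with 991. TUBA1B averaged 685 ± 15.8, 199 ± 3.48, 566 ± 19.1 and 801 ± 2.47 TPM in the same order. Both were lowest with phenformin and highest with 991, rotenone lying between CCCP and 991. Over the 11 tubulins rotenone was higher than phenformin in 10 and lower in 1 at 16 h, where 29.3% of all genes were higher and 40.1% lower. It was higher than CCCP in 6 and lower in 0, against 9.80% and 23.7% of all genes. Compared with 991 it was higher in 0 and lower in 6 at 16 h (8.99% and 18.9% of all genes) and higher in 0 and lower in 9 at 8 h (11.5% and 24.3%). Scaling moved the shares of all genes, to 2332 higher and 2154 lower against CCCP and 1896 and 1870 against 991 at 16 h, and 2459 and 2403 against 991 at 8 h, with median ratios. Quantile normalization gave 2376 and 2182, 1938 and 1884, and 2469 and 2247.

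For mitosis genes the order was different, and it moved with the scaling. At 16 h rotenone exceeded 991 in 4 of 155 and was lower in 52 (median -0.10), and at 8 h it was higher in 20 and lower in 42 (median -0.06). Against phenformin it was higher in 54 and lower in 54, and against CCCP higher in 38 and lower in 24. Of all genes at 16 h, 29.3% were higher and 40.1% lower than with phenformin, near the split of these lists. Against CCCP the shares of all genes were 9.80% and 23.7%. Against 991 they were 8.99% and 18.9% at 16 h and 11.5% and 24.3% at 8 h. After median-ratio scaling the counts higher and lower were 11 and 39 against 991 at 16 h, 27 and 29 at 8 h, 61 and 38 against phenformin and 60 and 15 against CCCP, and after quantile normalization 9 and 45, 24 and 38, 64 and 43 and 52 and 20. AURKA averaged 71.4 ± 2.85 TPM with rotenone, 75.4 ± 2.42 TPM with phenformin, 56.8 ± 0.477 TPM with CCCP and 79.5 ± 1.23 TPM with 991 at 16 h. Rotenone was above CCCP (0.32 ± 0.07, adjusted p = 1.35e-04) and was not called against phenformin (-0.08 ± 0.07) or 991 (-0.15 ± 0.07). NDC80 averaged 18.6 ± 0.662 TPM with rotenone and 23.5 ± 0.954 TPM with 991, a difference of -0.32 ± 0.10 (adjusted p = 0.00818). Both genes stood above their DMSO means with each of the 4 compounds, and rotenone gave neither its highest level.

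More stress response genes were lower with rotenone than with phenformin or CCCP than were higher, and the reverse held against 991, though at 16 h most were not called against it. At 16 h rotenone was lower than phenformin in 59 of 94 and higher in 21 (median -0.31), and lower than CCCP in 57 and higher in 10 (median -0.22). Against 991 there were 36 higher and 6 lower at 16 h (median 0.10) and 63 higher and 4 lower at 8 h (median 0.30). Of all genes, 40.1% were lower and 29.3% higher than with phenformin, 23.7% and 9.80% than with CCCP, and against 991 8.99% were higher and 18.9% lower at 16 h and 11.5% and 24.3% at 8 h. DDIT3 averaged 17 ± 0.738 TPM with rotenone, 148 ± 6.16 TPM with phenformin, 41.8 ± 2.4 TPM with CCCP and 21.4 ± 0.244 TPM with 991. TRIB3 averaged 17.6 ± 0.913, 92.3 ± 1.61, 55 ± 1.61 and 20.3 ± 0.877 TPM, and ASNS 226 ± 3.18, 326 ± 6.48, 301 ± 6.59 and 184 ± 6.6 TPM. The gap to phenformin was thus wide for DDIT3 (-3.05 ± 0.08) and TRIB3 (-2.32 ± 0.07) and narrower for ASNS (-0.53 ± 0.07), while ATF4 itself was slightly higher with rotenone than with phenformin (0.23 ± 0.06, adjusted p = 0.00103). Doses of the compounds are not given in the sources used here, so these are differences between groups as labelled.

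Over all genes, 315 were higher with rotenone than with each of the other 3 compounds at 8 h (2.31%) and 275 lower (2.02%), and at 16 h 335 were higher (2.46%) and 602 lower (4.42%). After median-ratio scaling these counts were 419 and 227 at 8 h and 598 and 318 at 16 h, and after quantile normalization 372 and 256, then 434 and 351, so which direction held more genes at 16 h depended on the scaling. Of the 602, 110 also fell against DMSO and 278 rose, so that more of them had risen than fallen. Of the 335, 42 also rose against DMSO and 197 fell, so that most had fallen less with rotenone than with the other compounds. HSPA8, the constitutive HSP70 chaperone, was among the 42: its levels were 517, 799 and 732 TPM in DMSO, 968, 867 and 901 TPM at 8 h and 977, 966 and 959 TPM at 16 h. The rotenone libraries were above all DMSO libraries, of which replicate 1 was low. The 16 h difference was 0.53 ± 0.10 with all libraries (adjusted p = 6.07e-06) and 0.34 without that one, and the means with phenformin, CCCP and 991 were 334, 542 and 691 TPM. Other heat shock genes were not uniform, with 6 of 14 up and 4 down at 16 h (6 and 2 after quantile normalization), DNAJB1 (0.59 ± 0.08) and CHORDC1 (0.61 ± 0.09) among those that rose. TFRC, the transferrin receptor, CCDC86, a nucleolar protein, and RBM14, a coactivator that also binds RNA, fell at 16 h (-0.48 ± 0.06, -0.31 ± 0.05 and -0.52 ± 0.16) and were still above the other compounds. UTP20, a ribosome assembly factor, rose by 0.36 ± 0.07 at 8 h and was not called at 16 h (0.13 ± 0.07, adjusted p = 0.101). Lowest with rotenone at 16 h were SAT1, which degrades polyamines (mean 13.6 TPM against 32.2, 23.1 and 24), the clock and hypoxia factor BHLHE40 (7.51 against 35.2, 12 and 13.7) and the secreted glycoprotein OLFM2 (3.74 against 8.37, 6.25 and 6.32). SAT1 and BHLHE40 were no longer called against DMSO at 16 h once DMSO replicate 1 was left out, nor BHLHE40 without DMSO replicate 3 or rotenone 16 h replicate 2 (adjusted p = 0.0518 and 0.057).

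**Figure D5:**
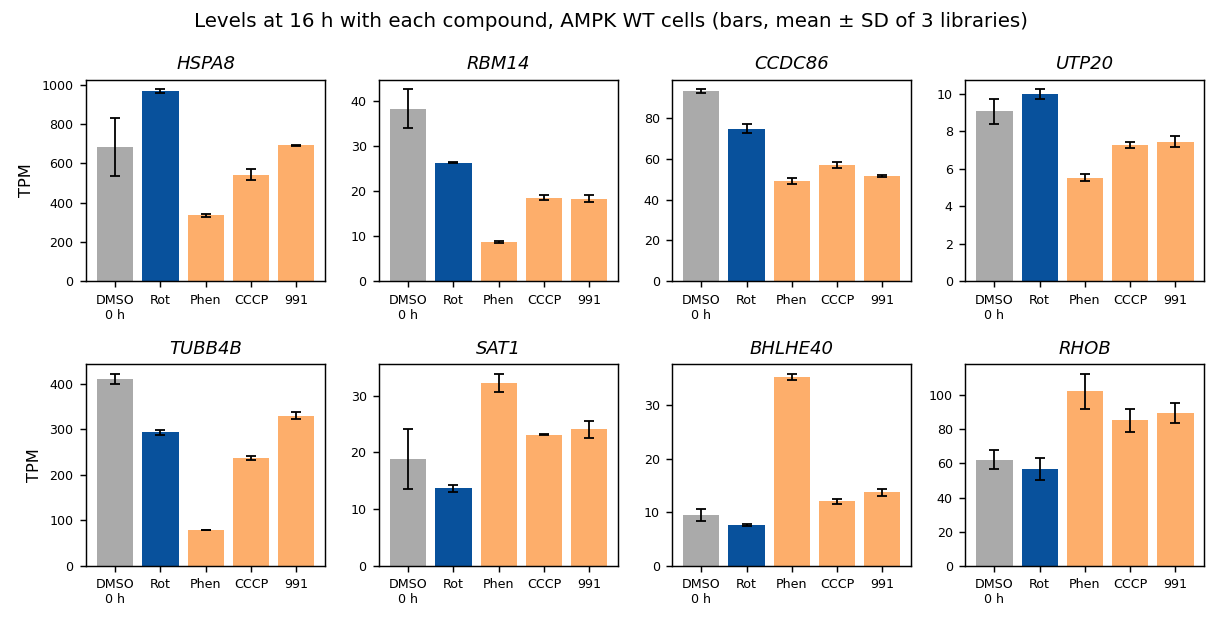
Mean TPM ± SD of 3 libraries for 8 genes in AMPK WT cells in DMSO at 0 h and after 16 h of rotenone, phenformin, CCCP or 991. HSPA8, RBM14, CCDC86 and UTP20 are higher with rotenone than with the other 3 compounds, SAT1, BHLHE40 and RHOB are lower, and TUBB4B lies between CCCP and 991.

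The genes of the organelle that rotenone poisons moved little. Of 35 complex I subunits 7 rose and 10 fell at 16 h (median -0.02), and of 41 genes of complexes II to V and cytochrome c 9 rose and 14 fell. These splits turned with the scaling: after median-ratio scaling 3 rose and 15 fell, then 3 and 19, and after quantile normalization 10 rose and 9 fell, then 12 and 8. NDUFS4, a complex I assembly subunit, was the kind of member that rose, at 41.6, 39.1 and 40.9 TPM in DMSO, 48.8, 50.9 and 52.7 TPM at 8 h and 54.9, 54.8 and 54.5 TPM at 16 h. The groups did not overlap, although 16 h against 8 h was not called (0.11 ± 0.06, adjusted p = 0.316). Mitochondrial ribosomal proteins fell in 32 of 74 cases and rose in 7 at 16 h. Among mitochondrial chaperones and proteases 8 of 17 rose and 4 fell, including the protease LONP1 (0.50 ± 0.05) and the chaperonin HSPD1 (0.32 ± 0.06). RHOT1 (Miro1), which tethers mitochondria to microtubule motors, went from 5.3, 6.49 and 5.95 TPM to 14, 14.5 and 16.1 TPM at 8 h and 16.7, 17 and 17.6 TPM at 16 h. All rotenone libraries were above all DMSO libraries, with a difference of 1.39 ± 0.12 at 16 h (adjusted p = 1.54e-15). Glycolysis and glucose uptake genes fell in 13 of 23 cases and rose in 3, and cycle enzymes of the mitochondrial matrix fell in 10 of 26 and rose in 6.

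Some sterol genes, and the actin genes ACTB and CNN2, fell further between 8 and 16 h. Of 24 genes of cholesterol synthesis and uptake 13 fell at 8 h and 16 at 16 h, with 2 up. At 16 h 9 were lower than at 8 h and 1 higher, against 4.36% and 4.05% of all genes. ACAT2, which starts the pathway from acetyl-CoA, was at 99.9, 105 and 103 TPM in DMSO, 79, 77.5 and 84.4 TPM at 8 h and 59.3, 58.7 and 57.8 TPM at 16 h. The 3 groups descended without overlap, and the 16 h level fell by 0.45 ± 0.05 from that at 8 h (adjusted p = 2.06e-11). INSIG1, the sterol sensor that retains SREBP, fell from 54.6 ± 4.57 to 35.6 ± 2.3 and 29.1 ± 0.705 TPM, and IDI1, an isomerase of the pathway, from 43.2 ± 6.58 to 33.3 ± 2.38 and 23.9 ± 1.01 TPM. Their steps after 8 h were called with all libraries, but that of INSIG1 was lost without any of 3 rotenone libraries and that of IDI1 without any of 5. The cholesterol list was higher with rotenone than with CCCP in 15 genes and lower in 2, and higher than with 991 in 0 and lower in 22. Of all genes at 16 h, 9.80% were higher and 23.7% lower than with CCCP, and 8.99% and 18.9% than with 991. ACTB, cytoplasmic beta-actin, was at 1922, 1802 and 1843 TPM in DMSO, 1742, 1692 and 1576 TPM at 8 h and 1194, 1183 and 1185 TPM at 16 h. The fall came mainly after 8 h (-0.49 ± 0.05, adjusted p = 6.97e-13), and CNN2, an actin-binding calponin, showed the same late step (-0.57 ± 0.06). Over the YAP and SRF targets 14 of 24 fell and 5 rose at 16 h. Of them 7 were lower and 2 higher at 16 h than at 8 h, against 4.36% and 4.05% of all genes.

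Genes for making ribosomes turned over in the same interval. Ribosome biogenesis factors had 17 of 41 up and 9 down at 8 h, then 10 up and 20 down at 16 h. At 16 h 11 were lower than at 8 h and 0 higher, against 4.36% and 4.05% of all genes. At 8 h the split was 14 up and 14 down after median-ratio scaling and 19 up and 6 down after quantile normalization. They remained higher with rotenone than with phenformin in 33, than with CCCP in 28 and than with 991 in 35 of the 41. Of all genes at 16 h, 29.3%, 9.80% and 8.99% were higher in the same order, shares that moved with the scaling. Cytosolic ribosomal protein genes rose in 12 of 52 cases at 8 h and 27 at 16 h, by small amounts (median 0.09), and fell in 3 and 2. The direction held at 16 h under both other scalings and turned at 8 h under the first: after median-ratio scaling 4 were up and 9 down at 8 h and 15 up and 5 down at 16 h, and after quantile normalization 20 up and 2 down, then 27 up and 4 down. RPL4 was the example with the largest level, at 1047 ± 50.1 TPM in DMSO and 1331 ± 8.61 TPM at 16 h.

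Deep falls were seen in genes that respond to serum and in replication-dependent histone genes. Of 20 immediate early genes 17 fell and 1 rose at 16 h (median -0.69), and of 12 ERK feedback genes 10 fell and 1 rose. EGR3, a transcription factor, was at 11, 3.02 and 5.5 TPM in DMSO, 0.066, 0.10 and 0.040 TPM at 8 h and 0.064, 0.086 and 0.055 TPM at 16 h. Every rotenone library was far below every DMSO library, among which replicate 1 was the highest, as it was for FOSB, FOS and CYR61. FOSB fell from 26.1, 5.37 and 9.57 TPM to 0.612, 0.387 and 0.474 TPM at 16 h, and FOS by 1.81 ± 0.14. Among feedback genes DUSP5, an ERK phosphatase, fell by 1.38 ± 0.10 and SPRY2 (sprouty 2) by 1.23 ± 0.15. The matricellular genes CTGF and CYR61, targets of YAP and SRF, fell, from means of 23.5 to 4.48 TPM and 43.9 to 12.6 TPM, as did ID1, a BMP target, by 1.19 ± 0.14. Replication-dependent histone genes fell in 15 of the 16 tested (median -1.51), a class whose mRNA normally ends in a stem-loop and carries no poly(A) tail. The linker histone gene H1F0, whose mRNA has a tail, fell from 887, 414 and 563 TPM to 105, 104 and 89.7 TPM at 8 h and stood at 184, 172 and 179 TPM at 16 h. Its DMSO libraries differed widely among themselves, and although the 8 h and 16 h libraries did not overlap, the difference between them was not called with all groups fitted (0.84 ± 0.39, adjusted p = 0.189) and was called with only the groups compared (adjusted p = 3.04e-04). Without DMSO replicate 1, immediate early genes had 15 down at each time and histone genes 12 down at 8 h and 13 at 16 h. The median of the histone genes was then -1.09 at 8 h and -1.08 at 16 h, and that of immediate early genes -0.56 at 16 h.

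TXNIP and its relative ARRDC4, arrestins that limit glucose uptake, were low throughout. TXNIP (chr1:145992426-145995722) was at 33.7, 16.4 and 19.2 TPM in DMSO, a mean of 2.79 TPM at 2 h, 4.55, 4.28 and 4.8 TPM at 8 h and 4.77, 4.71 and 5.36 TPM at 16 h. The rotenone libraries were tight and far below DMSO, in which replicate 1 was well above the others. The 16 h difference was -1.96 ± 0.17 with all libraries and -1.66 without that one. ARRDC4 fell by 1.67 ± 0.12, and both genes were near DMSO with 991, at 30.4 and 16.4 TPM.

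The same lists were counted in AMPK KO cells given rotenone. The label of the AMPK KO cells was checked with PRKAA1, which encodes the alpha1 catalytic subunit: it averaged 6.94 ± 0.599 TPM in AMPK WT and 2.55 ± 0.338 TPM in AMPK KO cells in DMSO. In AMPK KO cells 16 h of rotenone raised 4800 genes and lowered 3801, 35.3% and 27.9%. Tubulin genes fell in 10 of 11 with 0 up (median -0.54, against -0.39 in AMPK WT), mitosis genes rose in 96 and fell in 23 of 155 (median 0.20), and stress response genes rose in 69 and fell in 12 of 94 (median 0.52). The difference between the 2 responses was itself tested and called in 268 genes, 1.97%. Those 268 held 17 stress response genes with a higher change in AMPK KO cells and 1 with a lower one, 3 tubulins with a lower change and 1 and 2 mitosis genes in either direction.

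ASNS rose by 2.06 ± 0.07 in AMPK KO cells, reaching 306 to 312 TPM from 69 to 77.2 TPM, and the difference between the responses was 0.48 ± 0.10 (adjusted p = 0.00266). The AMPK KO libraries at 16 h were all above the AMPK WT libraries given above, while both DMSO groups were alike. SHMT2 (difference 0.27 ± 0.05), MTHFD2 (0.36 ± 0.08), PHGDH (0.31 ± 0.07), PCK2 (0.47 ± 0.12) and SLC1A4 (0.38 ± 0.10) went the same way. INSIG1 went from a mean of 59.7 ± 8.5 TPM to 19.7 ± 1.19 TPM in AMPK KO cells, a deeper fall (-0.66 ± 0.11, adjusted p = 8.38e-05). CDC6 (-0.28 ± 0.06) and CCNE1 (-0.38 ± 0.08) also fell further. These differences were still called without DMSO replicate 1 of AMPK WT cells. TUBA1B fell further in AMPK KO cells (-0.18 ± 0.05, adjusted p = 0.0246), as did TUBB4B (-0.24 ± 0.07) and TUBB2A (-0.35 ± 0.10), but these calls were lost without that library (TUBA1B, adjusted p = 0.206). EGR3 fell less in AMPK KO cells (difference 2.14 ± 0.32), whose DMSO libraries held only 0.209 to 1.08 TPM of it, so the smaller fall began from a lower level. Leaving out that DMSO library took the count of differing genes from 268 to 118. Leaving out 1 of the AMPK WT rotenone libraries at 16 h took it to between 151 and 174, and fitting only the groups compared took it to 58. How far the count rests on single AMPK KO libraries was not tested.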

How the data were processed

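Polyadenylated RNA of HEK 293T cells was sequenced, and the authors deposited TPM per gene. Per the submitters' processing notes, FastQC, STAR, HOMER and the GRCh38 build were used, with versions not given in the sources used here. One table, holding 102 libraries in 34 groups of 3, was analysed, and the other libraries of the series were not used here. Genes at 1 TPM or more in at least 3 libraries, 13617 of 27234, were kept. On log2(TPM + 1), limma 3.58.1 in R 4.3.3 fitted 1 mean per group over the 102 libraries (68 residual degrees of freedom) with a variance trend, and p-values were adjusted by Benjamini-Hochberg over the genes kept. A gene was called at an adjusted p under 0.05 and is described as rising or falling only then. Errors are SE of the fit or SD of 3 libraries. Because the values are relative, TPM of 1 gene depend on all others in its library.

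Members and gene lists were chosen with earlier results of these data known, so lists are described by counts and medians beside all genes, with no set test. Named genes came from a panel, from the largest changes among called genes with at least 5 TPM and groups that do not overlap, from the largest changes within lists, and from the largest differences from the other compounds. Gene coordinates are GRCh38 and promoters are from RefSeq's GRCh38.p14. On simulated data with 50 genes changed at each size, the fit recovered 30% of log2 changes of 0.2 at 8 h and 30% at 16 h, 82% and 86% at 0.4, 90% and 88% at 0.6 and 100% and 98% at 1, with 9 and 1 false calls among 13417 unchanged genes. In the simulation few genes were changed, and each gene had the same spread in every group. In the data most genes were called and DMSO libraries spread more than rotenone libraries, so these rates do not carry over to them. Alternatives were the scaling, the pseudocount, the filter, the groups fitted, a replicate block and leaving out single libraries. Only the 9 libraries of AMPK WT cells in DMSO or given rotenone for 8 or 16 h were left out, 1 at a time. No library of AMPK KO cells, of the early rotenone times or of the other compounds was left out. Tables and figures used Python 3.11.15, pandas 2.3.3 and matplotlib 3.10.9.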

Additional observations from a re-analysis of the deposited data

Results flagged for a closer look

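The results below drew attention because the response to 16 h of rotenone differed between AMPK KO and AMPK WT cells in limma's test of the difference itself. Each value is the change in AMPK KO cells minus that in AMPK WT cells, in log2(TPM + 1), over 3 libraries a group. Amino acid stress genes changed upward by more in AMPK KO cells: ASNS by 0.48 (adjusted p = 0.00266), PHGDH by 0.31 (0.00853), SHMT2 by 0.27 (0.000408), MTHFD2 by 0.36 (0.00624), ALDH1L2 by 0.56 (0.0385) and PCK2 by 0.47 (0.0199). Among amino acid carriers the differences were 0.43 for SLC7A11 (adjusted p = 0.0362), 0.38 for SLC1A4 (0.0192), 1.05 for SLC6A9 (3.26e-05) and 0.31 for SLC7A5 (0.0141). ATF3 stood 0.74 higher (adjusted p = 0.0107), having a change of -0.29 in AMPK WT and 0.45 in AMPK KO cells. PMAIP1 differed by 0.67 (adjusted p = 0.00357), with a change of -0.70 in AMPK WT and -0.03 in AMPK KO cells.

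Genes that fell further in AMPK KO cells were the tubulins TUBA1B (-0.18, adjusted p = 0.0246), TUBB2A (-0.35, 0.041) and TUBB4B (-0.24, 0.0441), the S phase genes CDC6 (-0.28, 0.00624) and CCNE1 (-0.38, 0.00266), INSIG1 (-0.66, 8.38e-05) and the lysosomal enzyme GLA (-0.49, 3.63e-05). Serum response genes fell less there: FOSB by 2.28 (adjusted p = 0.00302), EGR3 by 2.14 (9.69e-06), FOS by 0.83 (0.015) and CYR61 by 1.04 (0.0199). Without DMSO replicate 1 of AMPK WT cells 12 of these 23 differences were still called, those of ASNS, PHGDH, SHMT2, MTHFD2, PCK2, SLC1A4, SLC6A9, CDC6, CCNE1, INSIG1, EGR3 and GLA. The other 11 were not. No AMPK KO library was left out in this way, although AMPK KO DMSO replicate 1 lay farther from its group mean (0.166 against 0.126). Groups of 3 libraries are too small to test single libraries for being outliers.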

How the results depend on the processing

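Totals of called genes against DMSO moved by less than 1.5 times under every alternative run, but some parts of them moved more: with no filter the falls went from 3721 to 5700 at 8 h and from 3978 to 6084 at 16 h, and with a pseudocount of 0.1 the changes of at least 1.5-fold went from 591 up and 771 down to 1022 and 1263 at 8 h and from 686 and 859 to 1191 and 1328 at 16 h. At 8 h, 8531 genes became 8513 with median-ratio scaling (size factors 0.895 to 1.11), 8614 with quantile normalization, 8356 with a pseudocount of 0.1, 10631 of 24061 genes with no filter and 8326 with only the groups compared fitted, and 7433 to 8308 when 1 library was left out. At 16 h, 8907 became 8889, 8960, 8751, 11140, 8923 and 7931 to 8600. Between 8 and 16 h, 1146 genes became 2082 with only the groups compared and 626 to 835 without 1 library: 691 without rotenone 8 h replicate 1, and 750 and 626 without rotenone 16 h replicates 2 and 3. Between 4 and 8 h, 1020 became 554 to 685, with 607 and 554 when rotenone 8 h replicate 1 or 3 was left out. For the difference between AMPK KO and AMPK WT, 268 became 410 with no filter, 58 with only the groups compared and 118 to 326 without 1 AMPK WT library. Against the other compounds, 937 at 16 h became 1476 with only the groups compared and 712 to 741 without 1 rotenone library. In the same way 590 at 8 h became 404 to 537 without 1 rotenone library. The cause of these moves was not tested. No called value changed its sign. Of 18828 recomputed values of named genes 18056 kept their side of the threshold, 206 came to pass it and 566 no longer did, and of 1872 recomputed list medians 1682 moved by less than the spread between libraries. Without DMSO replicate 1, of the 139 genes in the text 127 calls at 8 h and 122 at 16 h were kept and 5 and 7 were lost. Other scalings moved the median of all genes by at most 0.0721.

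Replicate numbers showed no strong pairing of the libraries. The deviations of same-numbered libraries from their group means correlated by -0.0893 to 0.0627, and 0 of 9 pairs were over 0.1. In 4 of 9 cases a library matched its own number best. Each DMSO library did so with the rotenone 8 h libraries, at 0.0434 to 0.0541. Replicate 1 lay farthest from its group mean in other groups too, as in AMPK KO DMSO (0.166) and AMPK WT 991 at 4 h (0.196). It did not in AMPK WT cells given rotenone for 8 or 16 h. With the replicate number as a block the counts were 8758 at 8 h, 9108 at 16 h, 1501 between 8 and 16 h, 1290 between 4 and 8 h, 8901 in AMPK KO cells and 389 for the difference between AMPK KO and AMPK WT. Against the other compounds they were 672 at 8 h and 1065 at 16 h. Each of these counts was higher with the block than without it, and the cause was not tested. TPM keep no depth, so how far depth limits the low-level genes is unknown. DMSO at 0 h only, doses not given and replicates of unstated origin limit each comparison with DMSO.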

Other observations

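Lysosome and autophagy genes, many of them targets of TFEB, were called in both directions with rotenone at shares near those of all genes, 35.3% up and 27.3% down at 8 h and 36.2% up and 29.2% down at 16 h. Of 36 lysosomal hydrolases and membrane proteins tested, 13 rose and 9 fell at 8 h and 11 rose and 11 fell at 16 h (median 0.01). The 8 h split turned to 9 up and 12 down after median-ratio scaling. At 16 h the list was lower with rotenone than with 991 in 26 genes and higher in 1, against 18.9% and 8.99% of all genes. GLA, the lysosomal alpha-galactosidase, was at 292, 335 and 323 TPM in DMSO, 262, 266 and 273 TPM at 8 h and 206, 203 and 204 TPM at 16 h, a stepwise fall without overlap (-0.63 ± 0.06 at 16 h, adjusted p = 8.62e-16), while its mean with 991 was 332 TPM. MCOLN1, the lysosomal calcium channel, fell by 0.49 ± 0.07. V-ATPase subunits, the proton pump of the lysosome, fell in 11 of 18 cases and rose in 2 at 16 h, or 7 and 2 without DMSO replicate 1, ATP6V0B among the falls (-0.54 ± 0.05). Autophagy genes rose in 12 of 34 and fell in 9 at 16 h, or 13 and 5 without DMSO replicate 1, and NBR1, an autophagy receptor, averaged 18.3 ± 0.592 TPM in DMSO and 25.2 ± 0.883 TPM at 16 h (0.44 ± 0.04). Folliculin and Rag genes rose in 8 of 15 and fell in 3: FNIP2, a folliculin partner, rose by 0.57 ± 0.07 and RRAGA, a Rag GTPase, fell by 0.50 ± 0.06.

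Genes listed as targets of hypoxia-inducible factors did not move as 1 group. Of 20 tested, 12 rose and 6 fell at 16 h, or 9 and 7 after quantile normalization. PDK1, which restrains pyruvate dehydrogenase, went from 3.51, 4.75 and 4.37 TPM to 8.27, 8.52 and 8.61 TPM at 8 h and 7.49, 8.29 and 8.06 TPM at 16 h, all rotenone libraries being above DMSO (0.79 ± 0.10). The glucose transporter SLC2A1 fell by 0.41 ± 0.05 and the oxygen-sensing hydroxylase EGLN3 by 0.86 ± 0.11. NRF2 targets rose in 8 of 18 cases and fell in 2 at 16 h, or 5 and 3 after quantile normalization and 5 and 2 without DMSO replicate 1. HMOX1, heme oxygenase 1, averaged 32.6 ± 3.45 TPM in DMSO, 39.4 ± 0.42 TPM with rotenone and 160.1 ± 9.57 TPM with phenformin at 16 h, and its small rise of 0.27 ± 0.09 with rotenone was lost without DMSO replicate 1 (adjusted p = 0.0703).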
